A study of Homo sapiens with 8 samples.

Results

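The 10 genes described here encode the enzymes that build and modify long-chain fatty acids, together with their main transcriptional regulator. They were grouped by function and name, and no measured value enters the rule, although the set was proposed with earlier results of these data known. ACLY and ACSS2 supply acetyl-CoA, ACACA and FASN assemble the chain, ELOVL5 and ELOVL6 lengthen it, SCD, FADS1 and FADS2 add double bonds, and SREBF1 encodes the regulator. All 10 had a row among the 25593 gene rows of the deposited expression table, and all 10 were among the 12511 genes with enough signal to be tested. ELOVL6 reached that level only in Kasumi-1 cells, so it entered the test through the line in which it was high.

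The study measured RNA in HL60 and Kasumi-1, human acute myeloid leukaemia cell lines, with and without cinobufagin. Cinobufagin is a cardiotonic steroid of toad venom that inhibits the sodium-potassium pump. There were 4 groups of 2 libraries each: HL60 untreated, HL60 with 100 nM cinobufagin for 24 h, Kasumi-1 untreated, and Kasumi-1 with 100 nM cinobufagin for 24 h. HL60 is a promyelocytic line and was grown in RPMI-1640 with 10% fetal bovine serum. Kasumi-1 carries the RUNX1-RUNX1T1 fusion and was grown in the same medium with 20% serum, so that serum and cell line cannot be told apart in any comparison between the lines. Each line stands for 1 patient's leukaemia. Nothing in the labels tells whether replicate libraries were separate cultures. The p-values therefore reflect the spread of these 8 libraries alone, and that spread may be technical.

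Fatty acid synthesis starts in the cytosol, where citrate or acetate is turned into acetyl-CoA, acetyl-CoA carboxylase makes malonyl-CoA, and fatty acid synthase joins these units into palmitate. Elongases and desaturases of the endoplasmic reticulum then turn palmitate and dietary fatty acids into the longer and less saturated chains found in membrane phospholipids. The genes are classical targets of the SREBP transcription factors, which are held in the endoplasmic reticulum by SCAP and INSIG proteins and released when sterols or unsaturated fatty acids run low, and proliferating leukaemia cells use the pathway to make membranes.

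Levels are given as FPKM, fragment numbers divided by transcript length and by the mapped total of each library, which can be set side by side between genes. FPKM are relative to the mapped total of a library, and in bulk RNA fewer cells of a type and less RNA per cell cannot be told apart. The sources used here give no read totals. Relative depth, read from the steps between low values with untreated HL60 replicate 1 set to 1, was 0.79 in treated Kasumi-1 replicate 1 and 0.96 to 1.06 in the others. The Kasumi-1 markers matched the labels, as RUNX1T1, CD34 and TRH, 3 of the 9 line markers, were listed at 0 in both HL60 groups. All 9 were at 1 FPKM or more in Kasumi-1. The granule genes MPO, ELANE, PRTN3 and AZU1 did not mark HL60, since each was higher in untreated Kasumi-1. MPO was at 3327 FPKM in untreated HL60 and 6056 FPKM in untreated Kasumi-1. CD33 was higher in untreated HL60, at 73.0 against 31.9 FPKM. The 5 hepatocyte and 4 adipocyte markers, from cell types that make much fat, summed to at most 0.958 and 0.0622 FPKM in any library. The 6 lymphoid and erythroid markers summed to at most 0.487 FPKM except in treated HL60, where they reached 1.18 FPKM. Changes were tested on log2(FPKM + 1) with limma and Benjamini-Hochberg adjustment over all 12511 tested genes, and a gene is said to have risen or fallen when the adjusted p was under 0.05. On this scale the change of a weakly expressed gene is understated.

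The promoters of 4 members are shown as examples, and their part in the changes was not tested. FADS1 and FADS2 are neighbours on opposite strands whose starts lie 599 bases apart, with each gene running across the start of the other. Both fell in each line, as did most of the 10 genes. SCD had the highest level of the 10 genes in untreated HL60. ELOVL5 was the gene whose change was most alike in the 2 lines. Each sequence runs from 250 bases before the annotated start to 25 bases after it, on the strand of the gene, from the RefSeq promoter table of GRCh38.p14. That build is not the one the authors mapped to, and no coordinate was carried over. FADS1 lies at chr11:61816979-61817253 on the minus strand, FADS2 (the later of its 2 annotated starts) at chr11:61816154-61816428 on the plus strand, SCD at chr10:100346983-100347257 on the plus strand and ELOVL5 at chr6:53348926-53349200 on the minus strand. Capitals mark the E-box CACGTG and the NF-Y box CCAAT, which reads ATTGG where it lies on the other strand.
FADS1: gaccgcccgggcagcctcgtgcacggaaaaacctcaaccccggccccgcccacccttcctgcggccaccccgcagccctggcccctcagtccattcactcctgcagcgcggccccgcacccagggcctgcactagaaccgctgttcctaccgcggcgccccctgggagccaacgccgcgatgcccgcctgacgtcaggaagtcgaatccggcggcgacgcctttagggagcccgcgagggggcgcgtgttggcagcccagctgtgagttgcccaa
FADS2: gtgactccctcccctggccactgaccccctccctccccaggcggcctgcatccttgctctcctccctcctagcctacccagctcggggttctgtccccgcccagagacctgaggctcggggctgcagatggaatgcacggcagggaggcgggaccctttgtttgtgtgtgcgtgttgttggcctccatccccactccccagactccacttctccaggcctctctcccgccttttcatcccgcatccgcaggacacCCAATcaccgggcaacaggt
SCD: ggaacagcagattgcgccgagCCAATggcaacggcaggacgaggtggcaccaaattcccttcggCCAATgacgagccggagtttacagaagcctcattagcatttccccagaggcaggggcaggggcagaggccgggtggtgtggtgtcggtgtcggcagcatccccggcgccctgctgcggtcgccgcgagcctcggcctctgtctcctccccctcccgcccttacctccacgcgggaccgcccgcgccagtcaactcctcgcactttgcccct
ELOVL5: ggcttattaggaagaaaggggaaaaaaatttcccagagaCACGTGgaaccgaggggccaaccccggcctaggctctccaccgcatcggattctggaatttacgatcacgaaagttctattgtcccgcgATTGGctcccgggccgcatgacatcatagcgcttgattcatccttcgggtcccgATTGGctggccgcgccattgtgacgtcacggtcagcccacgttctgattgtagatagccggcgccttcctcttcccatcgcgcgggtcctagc
The E-box, a motif that SREBP-1 and USF factors bind among others, occurred in the ELOVL5 promoter, from position -211 to -206 relative to the start. The NF-Y box occurred 2 times in the SCD promoter and 2 times, on the other strand, in that of ELOVL5, and 1 time just after the later start of FADS2. Over the full windows of 250 bases before to 50 after each start, the table held 14 windows for 9 of the 10 members; FASN was not matched. The E-box was found in 1 of these 14 windows (7.143%), against 7.256% of all 35116 windows. The sterol element, a further motif searched for as 1 fixed sequence, was found in 0 of the 14 windows. It was found in 16 of all 35116 windows (0.046%). With so few matches among all windows, its absence from 14 windows cannot be read as a difference. The NF-Y box was found in 8 of 14 (57.143%) against 34.614% of all windows, and the GC box GGGCGG, on either strand, in 11 of 14 (78.571%) against 44.954%. FADS2, ACACA, ACLY and ACSS2 have more than 1 window, those of FADS2 and of ACLY overlap, and these matches describe letters only.

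In HL60, cinobufagin was accompanied by lower levels of the 10 genes, though not of all their partners in the pathway. All 10 genes fell, 8 of them by at least 1 on the log2 scale, where 37.6% of all tested genes fell and 14.1% fell by that much. The median log2 change of the 10 genes was -2.23, against -0.01 over all tested genes. The summed level of the 10 genes was 494 and 540 FPKM in the untreated libraries and 111 and 121 FPKM in the treated ones. For each of the 10 genes, both treated HL60 libraries lay below both untreated ones. The share of all tested genes whose libraries separated in this way was not computed in either line, so such separation describes single genes only. HL60 changed broadly under the drug, since 73.6% of all tested genes passed the test in either direction, and the count of members that fell has to be read against that background. The 9 line markers, by level mostly granule genes of promyelocytes, summed to 4468 to 4489 FPKM in untreated HL60. In treated HL60 they summed to 349 to 391 FPKM. The same sum was higher with the drug in Kasumi-1, at 10489 to 10742 FPKM untreated and 13506 to 13878 FPKM treated. The part of these genes in the results below was not tested.

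**Figure D1:**
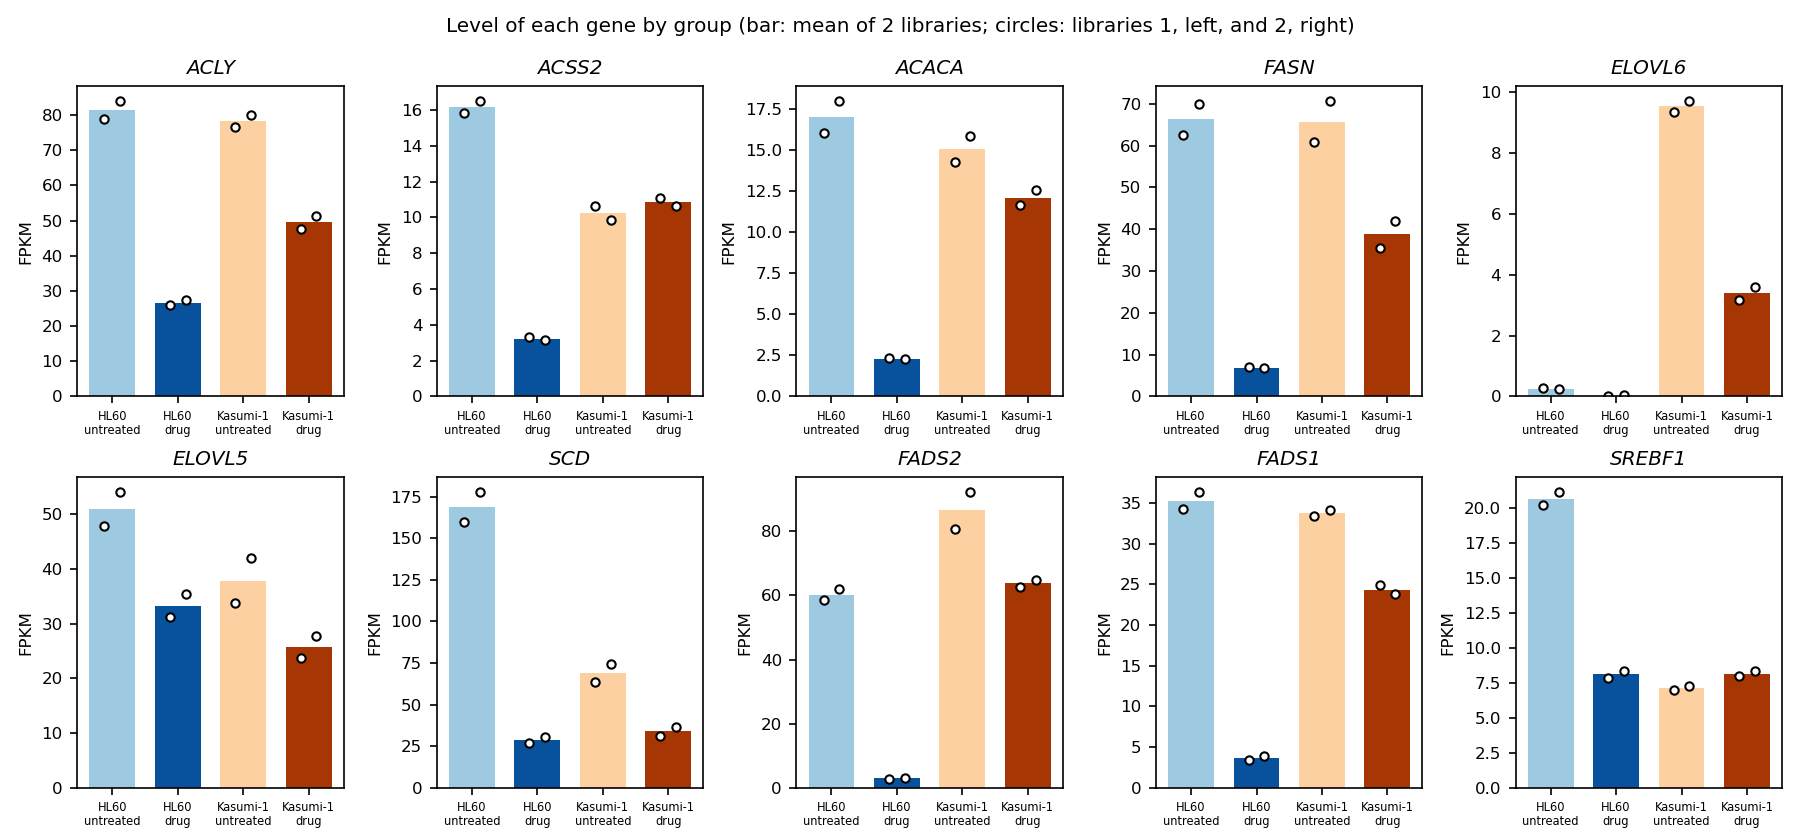
Level of each of the 10 genes in FPKM (vertical axes start at 0 and differ between panels) in the 4 groups; bars are means of 2 libraries and circles are the libraries. In HL60 every gene is lower with the drug, from FADS2 at 60.2 against 3.01 FPKM to ELOVL5 at 50.9 against 33.3 FPKM, whereas in Kasumi-1 the ACSS2 and SREBF1 bars with the drug are no lower than those without it.

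The genes that supply acetyl-CoA fell in HL60. ACLY, ATP citrate lyase, which cleaves citrate exported from mitochondria, was at 79.0 and 84.0 FPKM in the untreated HL60 libraries and at 25.9 and 27.5 FPKM with cinobufagin. The 2 groups were far apart, with means of 81.5 ± 3.59 and 26.7 ± 1.19 (SD, n = 2), a 3.05-fold lower level (log2 change -1.57, SE 0.06, limma adjusted p = 2.08e-06). ACSS2, the cytosolic acetyl-CoA synthetase that uses acetate, was at 15.8 and 16.5 FPKM untreated and at 3.30 and 3.16 FPKM treated. Its level was 5.01-fold lower with the drug (log2 change -2.02, SE 0.06, limma adjusted p = 8.75e-07). Of the pair, ACLY was the more abundant in every library.

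The 2 enzymes that make the chain also fell in HL60. ACACA, acetyl-CoA carboxylase 1, makes the malonyl-CoA that commits carbon to synthesis. Its level was 16.0 and 18.0 FPKM untreated and 2.33 and 2.26 FPKM treated, which is 7.41-fold lower (log2 change -2.45, SE 0.08, limma adjusted p = 1.18e-06). FASN, fatty acid synthase, was at 62.6 and 70.0 FPKM untreated and at 6.92 and 6.89 FPKM treated. The treated libraries of FASN differed from each other by far less than they did from the untreated ones, and the mean was 9.61-fold lower (log2 change -3.09, SE 0.11, limma adjusted p = 1.22e-06). Of the 12511 tested genes, 94 had a larger fall than FASN and 215 a larger fall than ACACA.

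Of the 2 elongases, only ELOVL5 was present at a level that allows a fold change in HL60. ELOVL5, which extends polyunsaturated chains, was at 47.9 and 54.0 FPKM untreated and at 31.2 and 35.4 FPKM treated, a 1.53-fold lower level (log2 change -0.60, SE 0.13, limma adjusted p = 0.00534). This was the smallest change in HL60 among the 9 genes with a level above 1 FPKM there, and 3082 tested genes had a larger fall. ELOVL6, which extends palmitate to stearate, was at 0.262 and 0.236 FPKM untreated and was listed at 0 and 0.0359 FPKM treated. It passed the test (log2 change -0.30, SE 0.07, limma adjusted p = 0.00925), but no fold is given at such levels. With a pseudocount of 0.1 the log2 change was -1.58, and without treated HL60 replicate 1 the adjusted p was 0.0542.

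FADS2 had the largest fall of the set, and the other desaturases fell as well. SCD, stearoyl-CoA desaturase, makes monounsaturated oleate and palmitoleate. It was at 160 and 178 FPKM in untreated HL60, where it was the most abundant of the 10 genes, and at 26.9 and 30.4 FPKM with the drug (5.88-fold lower, log2 change -2.52, SE 0.12, limma adjusted p = 3.64e-06). FADS2, the delta-6 desaturase that starts the synthesis of polyunsaturated chains, was at 58.6 and 61.8 FPKM untreated and at 2.85 and 3.16 FPKM treated. Its mean was 20.0-fold lower (log2 change -3.93, SE 0.08, limma adjusted p = 2.21e-07), and 40 tested genes fell further. FADS1, the delta-5 desaturase of the same route, was at 34.2 and 36.3 FPKM untreated and at 3.47 and 3.91 FPKM treated (9.55-fold lower, log2 change -2.95, SE 0.06, limma adjusted p = 2.82e-07). FADS1 and FADS2 have annotated spans that share 801 bases at their 5′ ends on opposite strands, and the sources used here do not give the strand setting of the counting, so reads from that stretch cannot be assigned with certainty.

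SREBF1, which encodes SREBP-1, fell less than most of the enzymes. It was at 20.2 and 21.2 FPKM in untreated HL60 and at 7.90 and 8.40 FPKM with the drug, a 2.54-fold lower level (log2 change -1.25, SE 0.06, limma adjusted p = 4.44e-06). The SREBP-1a and SREBP-1c transcripts share this row and were not separated. The annotated span of SREBF1 overlaps that of RAI1 by 120 bases, and RAI1 stood between 2.66 and 3.96 FPKM in all 8 libraries.

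**Figure D2:**
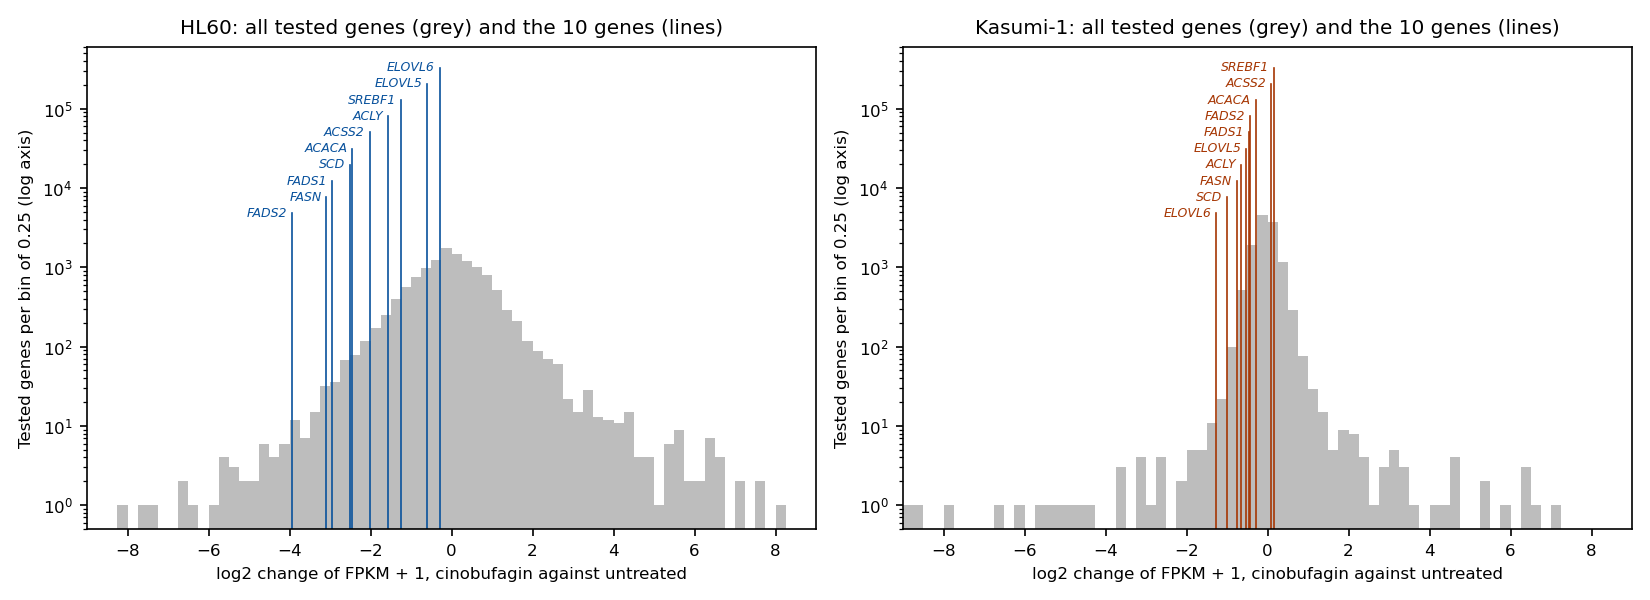
Distribution of the log2 change of FPKM + 1 with cinobufagin over all 12511 tested genes (grey, log axis of counts per bin) in HL60 and Kasumi-1, with the 10 genes as lines whose heights only separate the labels; 5 genes in HL60 and 1 in Kasumi-1 lie beyond the axis. In HL60 the lines spread from -3.93 (FADS2) to -0.30 (ELOVL6), and in Kasumi-1 from -1.26 (ELOVL6) to 0.16 (SREBF1).

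In Kasumi-1, the falls were smaller and reached 8 of the 10 genes. The enzymes of chain assembly, elongation and desaturation and ACLY were lower with the drug, ACSS2 and SREBF1 did not pass the test, and none rose. Of all tested genes 16.2% fell, 10.1% rose and 26.3% passed in either direction. The median log2 change of the 10 genes was -0.49, against -0.04 over all tested genes, and their summed level was 390 and 436 FPKM untreated against 260 and 281 FPKM treated. With the libraries rescaled by their median ratios, the split over all tested genes moved from 1266 risen and 2026 fallen to 1679 risen and 1518 fallen, while 7 members fell and 1 rose. With only the 4 Kasumi-1 libraries in the fit, 4 members passed, all lower, and without treated Kasumi-1 replicate 1, 5 did. The calls over all tested genes dropped under the same settings, from 3292 to 1040 and to 1785.

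ELOVL6 showed the largest log2 change of the 10 genes in Kasumi-1. Its level was 9.34 and 9.71 FPKM untreated and 3.18 and 3.60 FPKM treated, 2.81-fold lower (log2 change -1.26, SE 0.07, limma adjusted p = 0.000784). Only 44 of the tested genes fell further, and ELOVL6 was the 1 member among the 0.256% of all tested genes that fell by at least 1. SCD was at 63.4 and 74.3 FPKM untreated and at 31.2 and 36.7 FPKM treated (2.03-fold lower, log2 change -0.999, SE 0.12, limma adjusted p = 0.0031), with 68 genes falling further. FASN was at 60.8 and 70.7 FPKM untreated and at 35.6 and 41.9 FPKM treated (1.70-fold lower, log2 change -0.75, SE 0.11, limma adjusted p = 0.00525). For these 3 genes the treated and untreated Kasumi-1 libraries did not overlap, although with only the Kasumi-1 libraries in the fit the adjusted p of FASN was 0.0507.

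ACLY was at 76.6 and 80.1 FPKM in untreated Kasumi-1 and at 47.6 and 51.3 FPKM with the drug (1.58-fold lower, log2 change -0.65, SE 0.06, limma adjusted p = 0.00203). FADS1 was at 33.4 and 34.1 FPKM untreated and at 24.9 and 23.8 FPKM treated (1.39-fold lower, log2 change -0.46, SE 0.06, limma adjusted p = 0.00524). FADS2 was at 80.8 and 92.1 FPKM untreated and at 62.7 and 64.8 FPKM treated (1.36-fold lower, log2 change -0.43, SE 0.08, limma adjusted p = 0.0107). The groups were separate for all 3 genes, but the adjusted p of FADS2 was 0.0537 without treated Kasumi-1 replicate 1 and 0.0585 with only the Kasumi-1 libraries.

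The calls for ELOVL5 and ACACA in Kasumi-1 depended on the libraries and on the settings. ELOVL5 was at 33.8 and 42.0 FPKM untreated and at 23.8 and 27.8 FPKM treated (1.47-fold lower, log2 change -0.53, SE 0.13, limma adjusted p = 0.0291), and the adjusted p was 0.116 without untreated replicate 2, 0.125 without treated replicate 1, 0.098 with only the Kasumi-1 libraries and 0.0547 with no filter on low values. ACACA was at 14.2 and 15.8 FPKM untreated and at 11.6 and 12.6 FPKM treated (1.24-fold lower, log2 change -0.29, SE 0.08, limma adjusted p = 0.0453). Its groups did not overlap, but the call was lost when any 1 of the 8 libraries was left out, with adjusted p between 0.0529 (without untreated HL60 replicate 1) and 0.19 (without untreated Kasumi-1 replicate 2). With all libraries kept, its adjusted p was 0.0526 with a pseudocount of 0.1, 0.0669 with no filter and 0.069 after rescaling by median ratios, and 5 of 17 alternatives kept the call.

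The remaining 2 genes of the set did not fall in Kasumi-1. ACSS2 was at 10.6 and 9.86 FPKM untreated and at 11.1 and 10.7 FPKM treated, a log2 change of 0.08 with a 95% interval of -0.07 to 0.23 (limma adjusted p = 0.398). SREBF1 was at 7.04 and 7.32 FPKM untreated and at 7.98 and 8.34 FPKM treated, a log2 change of 0.16 with an interval of 0.02 to 0.31 before adjustment (limma adjusted p = 0.0933). The 2 treated libraries of each gene lay above the 2 untreated ones. With the libraries rescaled by median ratios the SREBF1 change was 0.22 (limma adjusted p = 0.0413), with quantile normalization 0.22 (limma adjusted p = 0.03). SREBF1 also passed with the replicate number as a block, though the labels do not say that this number marks a batch.

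**Figure D3:**
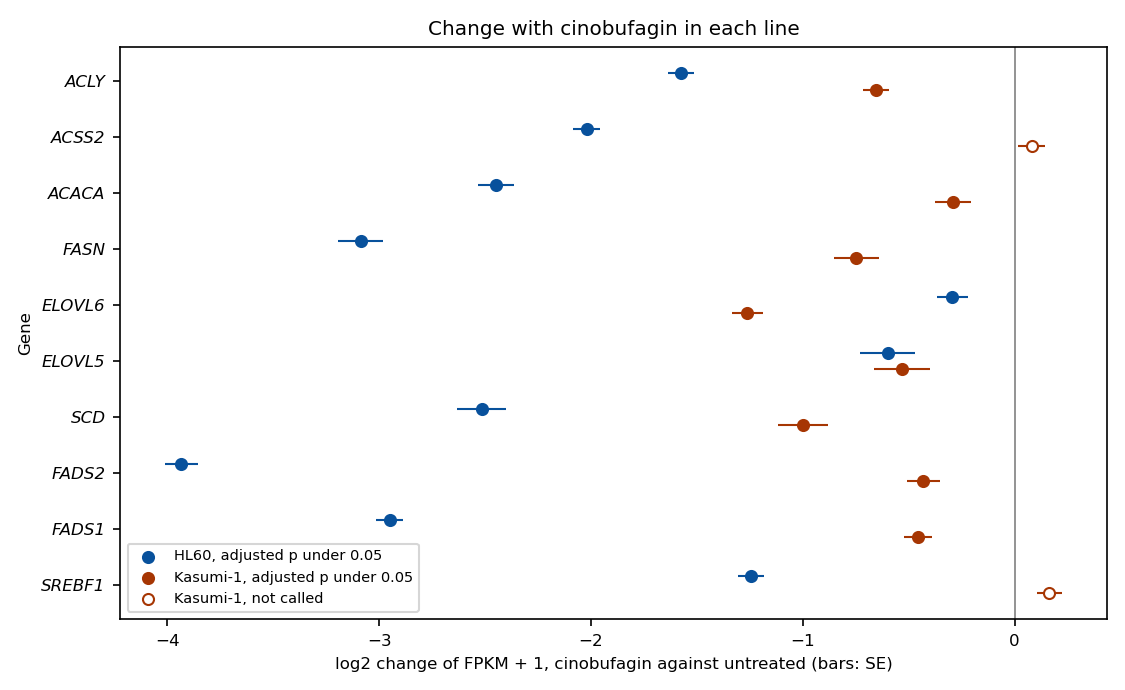
Change of each gene with cinobufagin in HL60 (blue) and Kasumi-1 (red), as log2 of FPKM + 1 with bars of 1 SE; filled points passed the test at an adjusted p under 0.05. The points of the 2 lines lie apart for every gene except ELOVL5, where they stand at -0.60 and -0.53, and ELOVL6 is the 1 gene whose Kasumi-1 point (-1.26) lies below its HL60 point (-0.30).

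The difference between the lines was tested as an interaction, the drug change in Kasumi-1 minus that in HL60. It passed for 9 of the 10 genes, 8 of them in the direction of a larger fall in HL60 and 1 in the other, where 63.1% of all tested genes passed, 30.1% and 33.1% in these directions. The median difference over the 10 genes was 1.81, against -0.03 over all tested genes. FADS2 had the largest difference (log2 3.50, limma adjusted p = 3e-06), followed by FADS1 (2.50, limma adjusted p = 5.52e-06), FASN (2.34, limma adjusted p = 3.86e-05) and ACACA (2.16, limma adjusted p = 2.19e-05). ACSS2 differed by 2.102 (limma adjusted p = 9.47e-06) and SREBF1 by 1.41 (limma adjusted p = 3.19e-05), the 2 genes that did not fall in Kasumi-1. SCD differed by 1.52 (limma adjusted p = 0.000332) and ACLY by 0.92 (limma adjusted p = 0.000192). For ELOVL5 the difference was 0.07 with a 95% interval of -0.38 to 0.51 (limma adjusted p = 0.773), an interval that does not reach the difference of any of the 8 genes with a larger fall in HL60. ELOVL6 had a difference of -0.97 (limma adjusted p = 0.000309), a value that reflects its low HL60 level on the log2(FPKM + 1) scale: with a pseudocount of 0.1 it was 0.12 (limma adjusted p = 0.713).

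Before treatment, the 2 lines had close levels of the chain-building enzymes and different levels of several others. Of the 10 genes, 2 were higher and 4 lower in untreated Kasumi-1 than in untreated HL60, where 35.9% and 33.8% of all tested genes were and 69.7% passed in either direction. FASN was at 66.3 ± 5.23 FPKM in HL60 and 65.8 ± 7.01 FPKM in Kasumi-1 (SD, n = 2), a log2 difference of -0.01 with an interval of -0.27 to 0.24 (limma adjusted p = 0.913). ACLY (log2 difference -0.06, limma adjusted p = 0.449), FADS1 (-0.06, limma adjusted p = 0.429) and ACACA (-0.17, limma adjusted p = 0.114) did not pass the test either. ELOVL6 had the largest difference, at 9.52 ± 0.261 FPKM in Kasumi-1 (SD, n = 2) and under 0.3 FPKM in HL60 (log2 difference 3.07, limma adjusted p = 2.08e-07, or 4.79 with a pseudocount of 0.1). ELOVL6, among the 2 genes counted as higher, was tested only because Kasumi-1 expressed it. A difference in this direction was therefore built into its entry, and its adjusted p adds no support. FADS2 was 1.44-fold higher in Kasumi-1 (limma adjusted p = 0.000999). SREBF1 was 2.88-fold lower in Kasumi-1 (limma adjusted p = 2.38e-06), SCD 2.45-fold lower (limma adjusted p = 8.11e-05) and ACSS2 1.58-fold lower (limma adjusted p = 0.000157). ELOVL5 was also lower (log2 difference -0.42, limma adjusted p = 0.025), a call that was lost without untreated HL60 replicate 2 (adjusted p = 0.123) or untreated Kasumi-1 replicate 1 (0.125). The SREBF1 level of treated HL60, 8.15 ± 0.353 FPKM, was next to that of treated Kasumi-1, 8.16 ± 0.258 FPKM (SD, n = 2).

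Ratios between members within a library describe their balance. The ratio of FADS2 to FADS1, the first and the later desaturation of the polyunsaturated route, was 1.71 and 1.70 in the untreated HL60 libraries and 0.822 and 0.808 in the treated ones, so that their order reversed. In Kasumi-1 it was 2.42 and 2.70 untreated and 2.52 and 2.72 treated, ranges that overlap. The ratio of SCD to FASN was 2.55 and 2.54 in untreated HL60 and 3.89 and 4.41 in treated HL60, and in Kasumi-1 it was 1.04 and 1.05 untreated and 0.877 and 0.875 treated. It therefore moved up in HL60 and down in Kasumi-1. The ratio of ACLY to ACSS2, the citrate and acetate routes to acetyl-CoA, was 4.99 and 5.09 in untreated HL60 and 7.85 and 8.71 in treated HL60. In Kasumi-1 the same ratio was 7.20 and 8.12 untreated and 4.29 and 4.81 treated, again the opposite direction. These ratios are descriptions and were not tested.

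**Figure D4:**
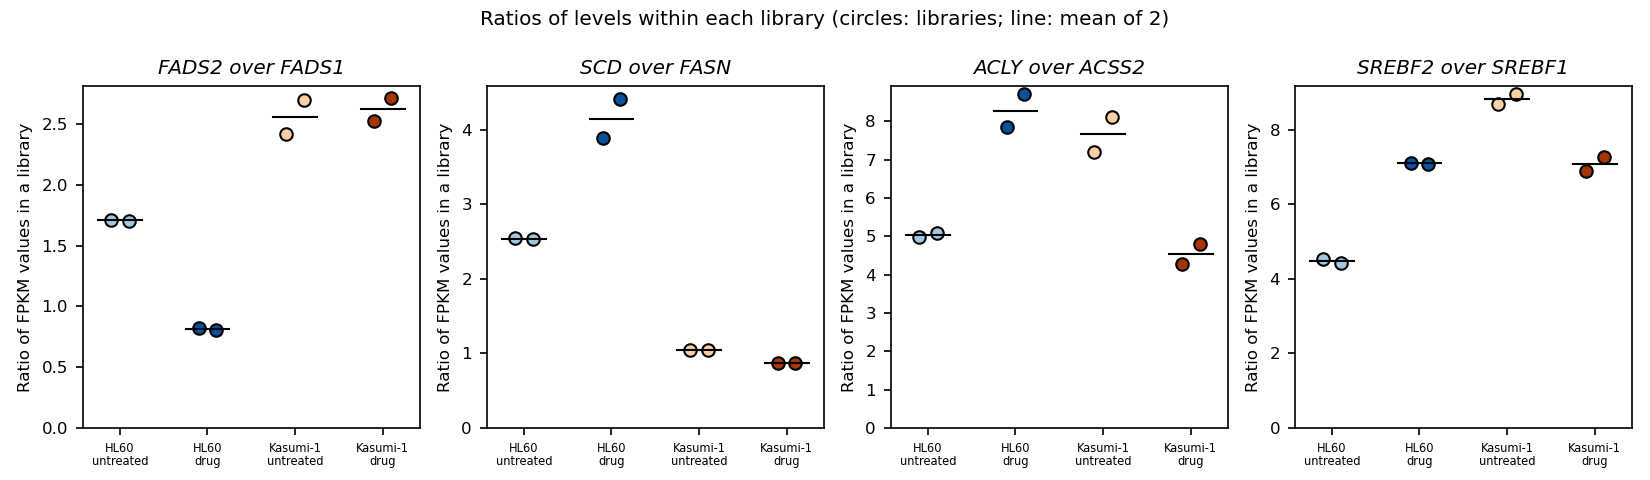
Ratio of the FPKM of 2 genes within each library (circles) and the mean of the 2 libraries (line) in the 4 groups, on axes that start at 0. FADS2 over FADS1 drops from about 1.71 to 0.822 and below in HL60 alone, and SREBF2 over SREBF1 rises in HL60 from 4.53 and 4.44 to 7.12 and 7.08.

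The other genes of the SREBP system behaved in more than 1 way. SREBF2, which encodes the SREBP-2 factor of cholesterol synthesis, fell in HL60 from 92.7 to 57.8 FPKM (log2 change -0.67, limma adjusted p = 0.000105). In Kasumi-1 it was at 63.3 and 57.9 FPKM (log2 change -0.13, limma adjusted p = 0.199). This change passed only with the replicate number as a block. SREBF2 exceeded SREBF1 in every library, with ratios of 4.53 and 4.44 in untreated HL60, 7.12 and 7.08 in treated HL60, 8.69 and 8.95 in untreated Kasumi-1 and 6.90 and 7.28 in treated Kasumi-1. INSIG1, a sterol-regulated SREBP target whose protein retains SCAP, was at 81.2 and 87.6 FPKM in untreated HL60 and at 10.5 and 12.04 FPKM in treated HL60 (log2 change -2.80, limma adjusted p = 8.41e-07). In Kasumi-1 INSIG1 fell from 24.2 to 12.2 FPKM (log2 change -0.93, limma adjusted p = 0.00199), and the 2 treated groups thus ended at similar levels. SCAP, the escort protein, had log2 changes of -0.03 in HL60 (limma adjusted p = 0.802) and 0.12 in Kasumi-1 (limma adjusted p = 0.334), and in HL60 the sign depended on the scaling, with 0.05 after rescaling by median ratios.

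Of the other regulators of lipogenic genes, MLXIPL, which encodes ChREBP, was listed at 0 in all 8 libraries. NR1H3, which encodes the oxysterol receptor LXR-alpha, was at 2.13 FPKM in untreated and 1.38 FPKM in treated HL60 (log2 change -0.38, limma adjusted p = 0.0524), and at 3.14 and 3.86 FPKM in Kasumi-1 (limma adjusted p = 0.277). MYC, a transcription factor of cell growth, fell from 768 to 29.8 FPKM in HL60 (log2 change -4.64, limma adjusted p = 7.85e-08) and from 309 to 201 FPKM in Kasumi-1 (log2 change -0.62, limma adjusted p = 0.00124).

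Beyond the 10 members, 122 genes in 9 lists of neighbouring functions were examined, of which 111 were tested. In HL60, 38 rose and 52 fell (34.2% and 46.8%), where 36% and 37.6% of all tested genes did. In Kasumi-1, 13 rose and 25 fell (11.7% and 22.5%), where 10.1% and 16.2% of all tested genes did. The Kasumi-1 counts depended on the libraries and scaling: leaving out untreated replicate 1 gave 7 risen and 13 fallen, leaving out treated replicate 1 gave 7 and 16, a fit of only the Kasumi-1 libraries gave 6 and 10, and rescaling by median ratios gave 17 and 18. The lists thus showed rises as well as falls in HL60, unlike the 10 members.

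**Figure D5:**
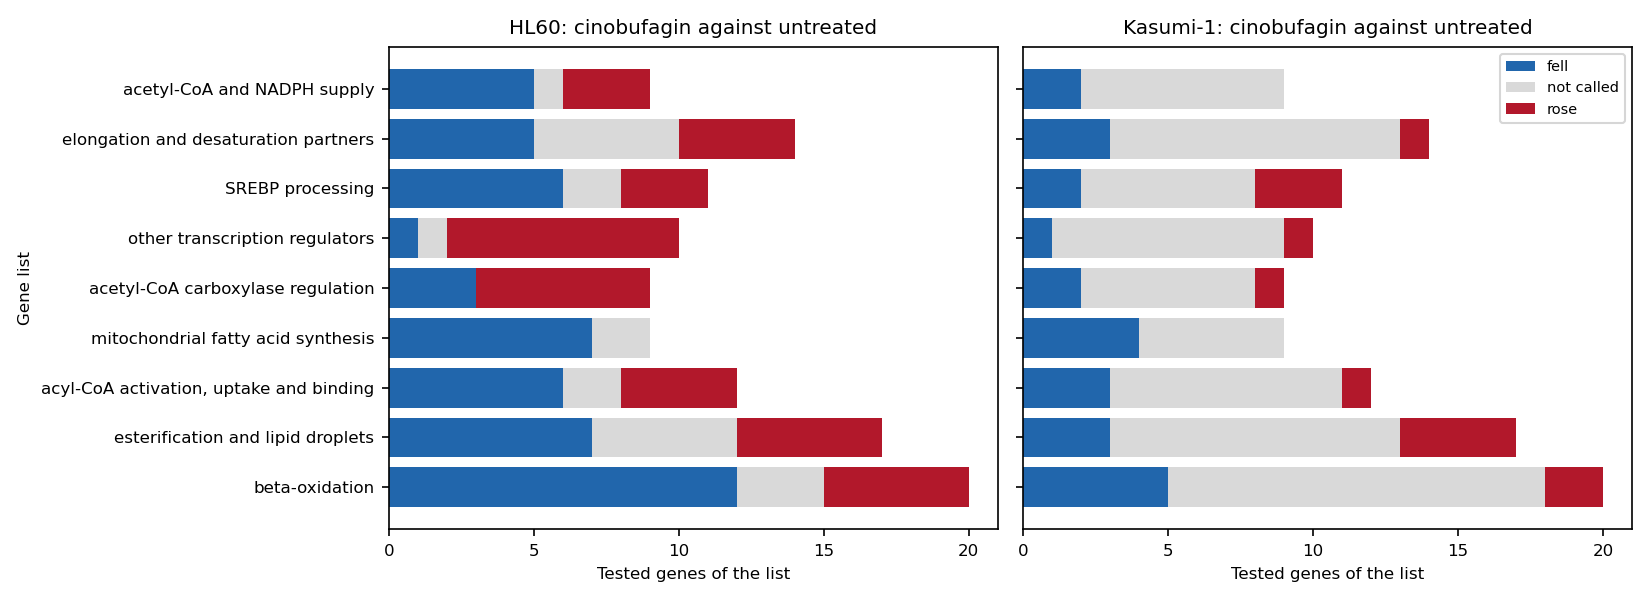
Number of tested genes in each of the 9 neighbouring lists that fell (blue), rose (red) or did not pass (grey) with cinobufagin in HL60 and in Kasumi-1, at an adjusted p under 0.05. In HL60, mitochondrial fatty acid synthesis has 7 of 9 genes lower and 0 higher, and the list of other transcription regulators has 8 of 10 higher. Over all tested genes 37.6% fell and 36% rose in HL60.

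Among the genes that supply acetyl-CoA and NADPH, 5 of 9 fell and 3 rose in HL60 (median log2 change -0.28). Of all tested genes 37.6% fell and 36% rose there. SLC25A1, the mitochondrial citrate exporter upstream of ACLY, fell from 66.7 to 24.2 FPKM (log2 change -1.43, limma adjusted p = 9e-07). IDH1, the cytosolic isocitrate dehydrogenase that makes NADPH, fell from 25.2 to 4.62 FPKM (log2 change -2.22, limma adjusted p = 2.22e-06). ME1, malic enzyme, another source of cytosolic NADPH, rose from 1.77 to 8.48 FPKM (log2 change 1.77, limma adjusted p = 7.9e-06), and PGD of the pentose phosphate pathway rose from 142 to 171 FPKM (log2 change 0.26, limma adjusted p = 0.00187). In Kasumi-1, 2 of the 9 genes fell and 0 rose, where 16.2% and 10.1% of all tested genes did. SLC25A1 fell there from 61.6 to 49.3 FPKM (log2 change -0.32, limma adjusted p = 0.00521).

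Of the partners of elongation and desaturation, 4 of 14 were higher and 5 lower in HL60 (median log2 change 0.04). Over all tested genes 36% were higher and 37.6% lower, so this split is near the background. CYB5A, the cytochrome b5 that passes electrons to the desaturases, fell from 19.9 to 4.67 FPKM (log2 change -1.88, limma adjusted p = 5.32e-06), and its reductase CYB5R3 from 32.2 to 21.3 FPKM (log2 change -0.57, limma adjusted p = 2.49e-05). HSD17B12, the reductase of the elongation cycle, rose from 40.7 to 67.2 FPKM (log2 change 0.71, limma adjusted p = 0.002). DEGS1, the sphingolipid desaturase, rose from 51.0 to 80.8 FPKM (log2 change 0.65, limma adjusted p = 4.54e-05). TECR, which completes the elongation cycle, fell in HL60 from 122 to 99.3 FPKM and rose in Kasumi-1 from 97.9 to 127 FPKM. The difference between these changes was 0.68 (limma adjusted p = 0.00088), and the Kasumi-1 rise had an adjusted p of 0.0504 without untreated replicate 1.

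In the list of SREBP processing, 6 of 11 genes fell and 3 rose in HL60 (median log2 change -0.52). For this list and the next, the shares over all tested genes were 37.6% fallen and 36% risen. ERLIN1, a membrane protein that binds the complex of SREBP, SCAP and INSIG, fell from 63.4 to 38.2 FPKM in HL60 (log2 change -0.72, limma adjusted p = 1.1e-05) and rose from 73.1 to 87.5 FPKM in Kasumi-1 (log2 change 0.26, limma adjusted p = 0.00874). FBXW7, whose protein marks nuclear SREBP for degradation, rose in HL60 from 6.53 to 8.99 FPKM (log2 change 0.41, limma adjusted p = 0.00188). The list of other transcription regulators had 8 of 10 genes higher and 1 lower in HL60 (median log2 change 0.54). USF1, which binds E-boxes of lipogenic promoters, rose from 22.1 to 67.0 FPKM (log2 change 1.55, limma adjusted p = 8.2e-06), and RXRA, the partner of LXR, from 14.4 to 40.9 FPKM (log2 change 1.45, limma adjusted p = 3.66e-05). NFYA, a subunit of the factor that binds CCAAT, fell from 8.85 to 5.93 FPKM (log2 change -0.51, limma adjusted p = 0.00023).

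Regulators of acetyl-CoA carboxylase had 6 of 9 genes higher and 3 lower in HL60 (median log2 change 0.28). Among all tested genes 36% were higher and 37.6% lower. PRKAG2, a subunit of the AMP-activated kinase that inhibits the carboxylase, rose from 6.77 to 26.0 FPKM (log2 change 1.80, limma adjusted p = 5e-07), while PRKAG1, another such subunit, fell from 21.9 to 15.6 FPKM (log2 change -0.47, limma adjusted p = 0.000391). MID1IP1, which promotes polymerisation of the carboxylase, rose from 41.7 to 66.3 FPKM (log2 change 0.65, limma adjusted p = 1.86e-05). ACACB, the mitochondrial isozyme of ACACA, was at 0.586 FPKM in untreated and 0.0838 FPKM in treated HL60, and at 3.12 and 3.04 FPKM in Kasumi-1 (log2 change -0.03, limma adjusted p = 0.811). ACACB was tested only because Kasumi-1 expressed it, and no ratio to ACACA is given at its HL60 level.

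Mitochondrial fatty acid synthesis, a separate route that makes the precursor of lipoic acid, had 7 of 9 genes lower and 0 higher in HL60 (median log2 change -0.85) and 4 lower and 0 higher in Kasumi-1 (median -0.33). Of all tested genes 37.6% were lower and 36% higher in HL60, and 16.2% and 10.1% in Kasumi-1. MECR, its last reductase, fell in HL60 from 10.1 to 1.70 FPKM (log2 change -2.03, limma adjusted p = 3.18e-06). LIAS, lipoic acid synthase, fell from 13.2 to 2.96 FPKM in HL60 (log2 change -1.84, limma adjusted p = 1.12e-06) and from 13.6 to 10.3 FPKM in Kasumi-1 (log2 change -0.37, limma adjusted p = 0.00856), where the adjusted p was 0.0521 with only the Kasumi-1 libraries.

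Genes that use, store or burn fatty acids moved both ways. In the list of acyl-CoA activation, uptake and binding, 6 of 12 fell and 4 rose in HL60 (median log2 change -0.27). Among all tested genes 37.6% fell and 36% rose. The acyl-CoA synthetase ACSL1 rose from 27.0 to 146 FPKM (log2 change 2.40, limma adjusted p = 7.78e-07), whereas its relative ACSL5 fell from 28.4 to 9.66 FPKM (log2 change -1.46, limma adjusted p = 5.29e-06). ACOT7, a thioesterase that cleaves acyl-CoA, fell from 35.1 to 5.27 FPKM in HL60 (log2 change -2.53, limma adjusted p = 5.52e-07) and from 54.5 to 29.4 FPKM in Kasumi-1 (log2 change -0.87, limma adjusted p = 0.0014). ACOT9, a mitochondrial thioesterase, rose in HL60 from 9.19 to 14.2 FPKM (log2 change 0.57, limma adjusted p = 0.00335).

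In the list of esterification and lipid droplets, 5 of 17 rose and 7 fell in HL60 (median log2 change -0.14). The shares over all tested genes were 36% and 37.6%. LPIN2, a phosphatidate phosphatase, rose from 10.0 to 52.6 FPKM (log2 change 2.28, limma adjusted p = 4.4e-07), and DGAT1, which makes triglyceride, fell from 10.9 to 4.04 FPKM (log2 change -1.24, limma adjusted p = 3.49e-06). PLIN2, the coat protein of lipid droplets, rose in both lines, from 11.4 to 34.3 FPKM in HL60 (log2 change 1.51, limma adjusted p = 5.11e-06) and from 23.2 to 38.5 FPKM in Kasumi-1 (log2 change 0.71, limma adjusted p = 0.00258). MBOAT7, which puts arachidonate into phosphatidylinositol, rose from 35.0 to 99.8 FPKM in HL60 (log2 change 1.49, limma adjusted p = 3.16e-06) and fell from 36.2 to 26.8 FPKM in Kasumi-1 (log2 change -0.42, limma adjusted p = 0.00694).

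The beta-oxidation list, which breaks fatty acids down, had 12 of 20 genes lower and 5 higher in HL60 (median log2 change -0.20) and 5 lower and 2 higher in Kasumi-1 (median -0.03). Over all tested genes 37.6% were lower and 36% higher in HL60, and 16.2% and 10.1% in Kasumi-1. ECHS1, enoyl-CoA hydratase, fell from 92.7 to 40.1 FPKM in HL60 (log2 change -1.19, limma adjusted p = 2.09e-06) and from 103 to 80.0 FPKM in Kasumi-1 (log2 change -0.36, limma adjusted p = 0.00431). SLC25A20, the carnitine carrier, rose from 10.4 to 21.3 FPKM in HL60 (log2 change 0.97, limma adjusted p = 1.12e-05) and from 18.7 to 24.0 FPKM in Kasumi-1 (log2 change 0.34, limma adjusted p = 0.00914). CPT1A, the gate of mitochondrial import that malonyl-CoA inhibits, fell in HL60 from 40.8 to 24.1 FPKM (log2 change -0.73, limma adjusted p = 0.000202) and was at 32.1 and 39.8 FPKM in Kasumi-1 (log2 change 0.30, limma adjusted p = 0.0382). The 2 changes of CPT1A differed by 1.04 (limma adjusted p = 0.000373), but its Kasumi-1 call was lost when any 1 of the Kasumi-1 libraries was left out, with adjusted p up to 0.158.

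Across the 8 libraries, the genes whose log2(FPKM + 1) pattern was most like that of FASN, among 9125 compared, were MINA (Pearson r = 0.9996), POLR1B (r = 0.9993) and RRP1B (r = 0.9987). For SCD they were TBL3 (r = 0.9975), HMGCS1 (r = 0.9974) and NOP14 (r = 0.9966), and for SREBF1 they were XRCC6BP1 (r = 0.9967), DYSFIP1 (r = 0.9958) and KIAA1274 (r = 0.9943). These correlations are descriptions over 8 libraries that fall into the same 4 groups.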

How the data were processed

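RNA was measured in 8 libraries, 2 in each of 4 groups. The authors deposited 1 table of FPKM values with a column per library, and all 8 columns were used. The kit was TruSeq Stranded mRNA, per the labels' protocols. Reads were handled with bcl2fastq 2.20.0, with HISAT2 2.1.0 and with Cufflinks 2.2.1 on build hg19, per the submitters' processing notes. The sources used here do not give the annotation, the strand setting or any filter. Without counts no count model was fitted and no counting interval set.

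The genes tested had 1 FPKM or more in 2 or more of the 8 libraries. The test was limma 3.58.1 in R 4.3.3 on log2(FPKM + 1), with 1 mean per group over all 8 libraries, 4 residual degrees of freedom and an intensity trend of the variance. The Benjamini-Hochberg adjustment ran over 12511 genes, and an adjusted p under 0.05 was called. The fit was checked on simulated data with independent normal noise, in which 100 genes changed by a log2 of 1 and 100 by 2. It recovered 95% and 98% of them, and 4.46% of the calls were false. In these data 73.6% of genes passed in HL60, so the check covers the code and not the calls. Replicates of a group correlated at r between 0.967 and 0.974 over log2(FPKM + 1), and no pair of columns was a copy.

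The members and lists were chosen with earlier results of these data known. All members are named; from each list, up to 2 genes per direction and line with the smallest adjusted p could be named, those with calls that rest on few settings being left to the counts; SREBF2, INSIG1, SCAP, MLXIPL, NR1H3, MYC, CPT1A and ACACB are always named, some genes that the rule picks are not reported here, and TECR in HL60 and PLIN2 in HL60 were added after their values were seen. Likeness is Pearson r over genes with a highest group mean of at least 5 FPKM. Alternatives were a pseudocount of 0.1, no filter, a filter at 5 FPKM, rescaling by median ratios, quantile normalization, a replicate block, variances without trend, short RNAs and repeated symbols left out, only the libraries compared, and each library left out in turn. Promoters came from the RefSeq table of GRCh38.p14, where FASN was not matched.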

Additional observations from a re-analysis of the deposited data

Results flagged for a closer look

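For 9 of the 10 genes the drug change differed between the lines by the test of the difference itself (Kasumi-1 minus HL60, log2 of FPKM + 1). The difference was 3.50 for FADS2, 2.50 for FADS1, 2.34 for FASN, 2.16 for ACACA, 2.102 for ACSS2, 1.52 for SCD, 1.41 for SREBF1 and 0.92 for ACLY, all in the direction of a larger fall in HL60. For ELOVL6 it was -0.97, but with a pseudocount of 0.1 it was 0.12, and ELOVL6 stood under 0.3 FPKM in every HL60 library. Over all tested genes, 63.1% differed between the lines by the same test. Serum and cell line cannot be told apart in these values.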

How the results depend on the processing

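The number of members called was 10 in HL60 (9 to 10 with 1 library left out), 8 in Kasumi-1 (5 to 7), 9 for the difference between the lines (9 in each case) and 6 for the untreated lines (5 to 6). The Kasumi-1 count was 5 without treated replicate 1 and 4 with only the Kasumi-1 libraries. Over all tested genes, the Kasumi-1 calls went from 3292 to 1689 and 1621 without untreated replicate 1 or 2, 1785 and 2067 without treated replicate 1 or 2, and 1040 with only the Kasumi-1 libraries. The cause was not tested. In the main fit, 73.6% of all tested genes passed in HL60 and 26.3% in Kasumi-1. For the difference between the lines 63.1% passed, and for the untreated lines 69.7%. The counts of members are to be read against these shares. The difference between lines was 0.12 for ELOVL6 with a pseudocount of 0.1, and for ELOVL5 it ran from -0.0861 to 0.22 with 1 library left out. FASN between the untreated lines was 0.0363 with quantile normalization and ran from -0.12 to 0.0930 with 1 library left out. SCAP in HL60 was 0.0462 with median ratios and reached 0.0758 without treated replicate 1. ACACB in Kasumi-1 was 0.0195 with median ratios and 0.00935 with quantile normalization, and ran from -0.0778 to 0.0237 with 1 library left out. NR1H3 in HL60 passed under 6 of its 16 alternatives.

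The labels number replicates 1 and 2 in each group but do not say that a number marks a shared batch. The correlation of the replicate differences between groups was 0.13 to 0.33, and 0.27 to 0.43 without short RNAs and repeated symbols, over 2 pairs per comparison. With the replicate number as a block, 10 members passed in HL60 and 9 in Kasumi-1. The calls over all tested genes rose from 9212 to 9787 in HL60 and from 3292 to 4749 in Kasumi-1. In Kasumi-1, SREBF1 then passed with a change of 0.16 (limma adjusted p = 0.0316) and SREBF2 with -0.13 (0.0348).

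All values are relative to the mapped total of a library, the depth is known only as a ratio between libraries, and FPKM near 0 carry no interval. Summed over all gene rows, FPKM reached 732706 and 1445580 in the untreated HL60 libraries, and 704828 and 727624 in the untreated Kasumi-1 libraries. The treated libraries reached 594943 and 1187889 in HL60, and 723454 and 1425192 in Kasumi-1. The median-ratio factors of the libraries lay between 0.968 and 1.045. The cause of the unequal sums was not tested.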

Other observations

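Isozymes outside the set, chosen after their values were seen, also differed between the lines. SCD5, a second stearoyl-CoA desaturase, was at 0.0243 FPKM in untreated HL60 and 2.99 FPKM in untreated Kasumi-1 (log2 difference 1.96, limma adjusted p = 2.04e-06). FADS3, the third gene of the FADS family, was at 0.175 and 5.11 FPKM (log2 difference 2.38, limma adjusted p = 6.18e-07), and the elongase ELOVL7 at 0.00748 and 1.48 FPKM (log2 difference 1.30, limma adjusted p = 8.15e-06). These 3 genes were tested only because Kasumi-1 expressed them, so that a difference in this direction was built into their entry, and with a pseudocount of 0.1 the differences were 4.63, 4.26 and 3.87. The other elongases with low levels, ELOVL2, ELOVL3 and ELOVL4, were not tested and did not all go this way. In untreated HL60 and untreated Kasumi-1, ELOVL3 was at 1.09 and 0.347 FPKM and ELOVL2 at 0.412 and 0.0781 FPKM. ELOVL4 was at 0.0195 and 0.230 FPKM. Of SCD5, FADS3 and ELOVL7, none fell in Kasumi-1 with the drug, where SCD5 was at 2.99 untreated and 2.42 FPKM treated (limma adjusted p = 0.0967).

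ELOVL1, which makes very long saturated chains, had levels of 58.2 FPKM in untreated and 50.8 FPKM in treated HL60, and of 47.8 and 49.9 FPKM in Kasumi-1. ELOVL1 and ELOVL5 were the most abundant elongases in HL60 in both groups.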
